A study of Triticum aestivum with 3 samples.

Results

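The regions described here lie on the unplaced sequence of the bread wheat (Triticum aestivum) genome and were called in both CUT&Tag replicates. They were chosen by the positions of the deposited peak calls: overlapping peaks of the replicates, by 1 bp or more, were merged, and a merged region was kept where it held a peak of each replicate on the sequence that the lists name ChrUnknown. This left 1739 of the 7403 shared regions of the series (23.5%, Wilson 95% interval 22.5 to 24.5%). Of these, 702 overlapped a mock peak by 1 bp or more and 1037 did not. Regions of the second kind are called mock-free, which means that no mock peak was called there and not that the mock had no fragments. The calls in all 3 libraries thus chose and grouped the regions, so their heights and widths are a description.

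The libraries were 2 CUT&Tag replicates and 1 mock, all from protoplasts of wheat seedlings put through PEG transformation. The series sought targets of TaSPL6-D. The labels give an anti-GFP or IgG antibody for the assay without saying which library received which. They give no construct, cultivar or seedling age, they name the control both mock and input, and they do not say that the replicates came from separate preparations. With 1 mock library no test between conditions is possible, and regions are not replicates. Intervals on shares cover counting error only and treat neighbouring regions as independent.

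SBP-box proteins such as TaSPL6-D are plant transcription factors that bind DNA through a zinc-containing domain with a GTAC core in its sites. CUT&Tag tethers a transposase to an antibody on chromatin and reads the DNA it cuts. The unplaced sequence of an assembly joins the pieces that could not be assigned to a chromosome. In large plant genomes such pieces are often rich in repeats, such as ribosomal RNA genes, and the number of reads mapped to a repeat also depends on how many copies the assembly keeps. In a RefSeq gene table for the assembly IWGSC CS RefSeq v2.1, 3904 of the 7081 genes on unplaced pieces are rRNA genes (55.1%), against 2573 of 148319 on the 21 chromosomes (1.73%). That table counts positions within each piece, up to 1752298, whereas the peaks run from 257907 to 351508827 along 1 joined sequence. No gene, exon or UTR could therefore be placed at these regions, and the lists name no genome build.

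Unplaced sequence took 2579 of 12848 peaks in replicate 1 (20.1%), 1894 of 8401 in replicate 2 (22.5%) and 781 of 1754 in the mock (44.5%). On it, 94.5% of replicate 2 peaks lay at a replicate 1 peak (Wilson 93.4 to 95.4%), against 88.4% on the chromosomes (87.6 to 89.1%) and 89.8% in the whole list. For replicate 1 the share at a replicate 2 peak was 68.2% on unplaced sequence (66.4 to 70%), against 55.5% on the chromosomes (54.5 to 56.4%) and 58% in the whole list. Mock peaks lay at a shared region in 93.6% of cases on unplaced sequence (91.7 to 95.1%), against 79.0% on the chromosomes (76.4 to 81.5%) and 85.5% in the whole list. By the fragments the backgrounds imply, replicate 2 had 0.718 and the mock 0.449 of the depth of replicate 1. The lowest backgrounds, which also reflect fragment length, stood at ratios of 0.762 and 0.56.

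A mock peak was present at 40.4% of the unplaced regions (702 of 1739, Wilson 38.1 to 42.7%), against 13.1% of the regions on the chromosomes (744 of 5664, 12.3 to 14%). Over all shared regions the share was 19.5%. With lists of equal length, made of the 1754 peaks of highest −log10 q in each library, the shares were 67.1% on unplaced sequence and 61.7% on the chromosomes. In the full lists unplaced sequence held 23.5% of all shared regions and 48.5% of those with a mock peak (46 to 51.1%), and with lists of equal length it held 52.7% of all shared regions.

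Unplaced regions with a mock peak were the taller ones. Height is the number of fragments at the summit, solved from the deposited fold and −log10 p of the peak. In replicate 1 the regions with a mock peak had 7 to 474 fragments with a median of 75 (quartiles 37 to 105), against 6 to 190 with a median of 22 (14 to 43) in mock-free regions. In replicate 2 the medians were 52 fragments (quartiles 27 to 78) with a mock peak and 16 (10 to 29) mock-free. The ratio of medians was 3.41 in replicate 1 and 3.25 in replicate 2. With lists of equal length it was 1.49 in replicate 1. The groups overlapped, and the replicates gave the same order. This order was not particular to unplaced sequence. On the chromosomes the medians were 45 and 12 fragments in replicate 1, a ratio of 3.75. In replicate 2 they were 33 and 11 fragments, a ratio of 3.

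**Figure D1:**
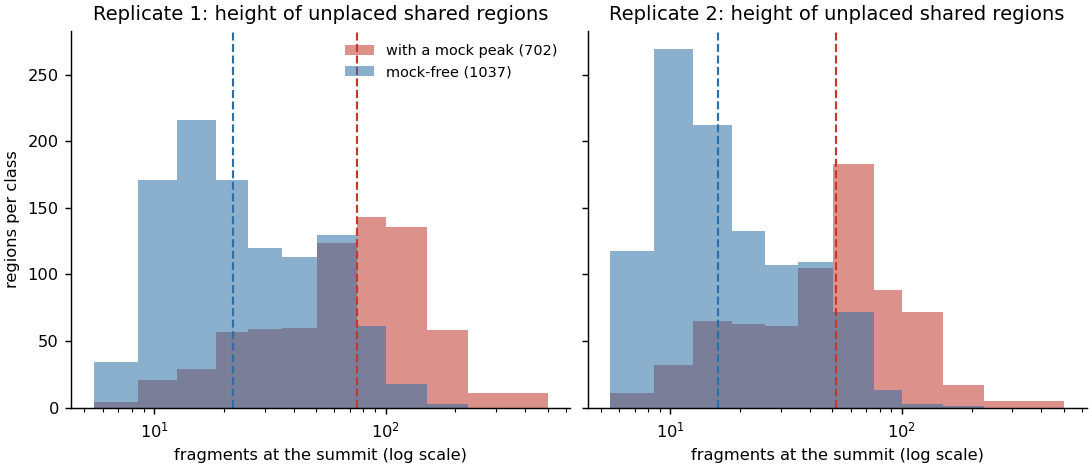
Number of unplaced shared regions per class of summit fragments (log axis, classes of unequal width) in replicate 1 (left) and replicate 2 (right), for 702 regions with a mock peak (red) and 1037 mock-free regions (blue); dashed lines are medians. The medians are 75 and 22 fragments in replicate 1 and 52 and 16 in replicate 2.

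Mock-free regions on unplaced sequence were also taller than those on the chromosomes, with medians of 22 and 12 fragments in replicate 1 and 16 and 11 in replicate 2. At 50 or more replicate 1 fragments stood 39.7% of unplaced regions (37.5 to 42.1%), against 9.75% of chromosomal ones (9 to 10.5%). On unplaced sequence the typical ratio of the replicate heights lay near the depth ratio, with quartiles of 0.636 to 0.826. Replicate 2 had a median of 0.726 of the replicate 1 fragments over all unplaced regions, 0.729 with a mock peak and 0.721 without one, beside the depth ratio of 0.718. Over the chromosomal regions this median was 0.875, with 0.74 at those with a mock peak and 0.889 at mock-free ones. The heights of these mock-free ones, with medians of 12 and 11, lay near the lowest of 6 fragments in each replicate. On unplaced sequence the replicate summits lay a median of 11 bp apart with a mock peak and 18 bp apart without one.

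Taking height into account narrowed the gap between the unplaced and chromosomal mock shares without closing it. With chromosomal shares taken per height class and weighted by the unplaced regions' 9 height classes, the chromosomal share was 32.7%, below the 40.4% of the unplaced regions and above the unweighted 13.1%. The intervals were apart at 18 or fewer fragments and at 101 to 150. Among regions with 12 or fewer replicate 1 fragments, 25 of 230 unplaced ones had a mock peak (10.9%, Wilson 7.47 to 15.6%), against 23 of 2713 on the chromosomes (0.848%, 0.566 to 1.27%). At 13 to 18 fragments the shares were 11.8% (8.37 to 16.5%) and 4.08% (3.02 to 5.49%). From 36 to 50 fragments they were 34.7% (28 to 42%) and 39.4% (34.8 to 44.3%), and from 51 to 75 fragments 48.8% (42.7 to 54.9%) and 46.7% (40.4 to 53.2%), with intervals that overlapped. At 101 to 150 fragments 136 of 154 unplaced regions had a mock peak (88.3%, 82.3 to 92.5%), against 65 of 99 on the chromosomes (65.7%, 55.9 to 74.3%).

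**Figure D2:**
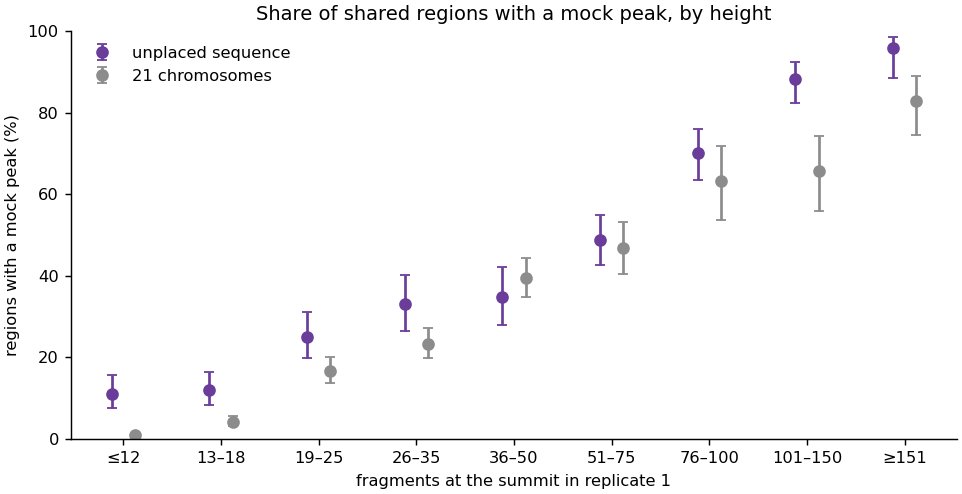
Percent of shared regions with a mock peak (vertical axis) by fragments at the replicate 1 summit (horizontal axis), on unplaced sequence (purple) and on the 21 chromosomes (grey); bars are Wilson 95% intervals. The purple points lie above the grey ones in every class except 36 to 50 fragments, and the intervals do not overlap at 18 or fewer and at 101 to 150 fragments.

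The mock heights at unplaced regions were low for their replicate heights, but not in the lowest height classes. The 702 mock peaks had 5 to 311 fragments with a median of 15 (quartiles 11 to 23), against a median of 19 (12 to 31) at the 744 chromosomal regions. The median ratio of mock to replicate 1 fragments was 0.239 on unplaced sequence (quartiles 0.174 to 0.36), against 0.367 on the chromosomes (0.26 to 0.563). In regions of 76 to 100 replicate 1 fragments the median ratio was 0.183 on unplaced sequence and 0.267 on the chromosomes, and at 101 to 150 it was 0.193 and 0.295. All 4 of these ratios lie below the depth ratio of 0.449. At 12 or fewer fragments the median ratio was 0.778 on both sequences. At 13 to 18 it was 0.667 on unplaced sequence and 0.6875 on the chromosomes, and at 19 to 25 it was 0.5 and 0.591. The ratios of these low classes lie above the depth ratio. These medians hold only regions where the mock was called, which leaves out the lowest mock values.

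A small set stood the other way round. The mock peak was taller than the replicate 1 peak in 21 of 702 unplaced regions (2.99%, Wilson 1.96 to 4.53%), against 52 of 744 on the chromosomes (6.99%, 5.37 to 9.05%), and in 5.05% of all shared regions with a mock peak. In these 21 regions replicate 1 had 7 to 27 fragments, replicate 2 had 7 to 25 and the mock had 8 to 44, with medians of 14, 12 and 22. The mock was taller than replicate 2 as well in all 21. The farthest, at 348456254 to 348456480 and chosen after its values were seen, had 9 and 8 fragments in the replicates and 30 in the mock.

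**Figure D3:**
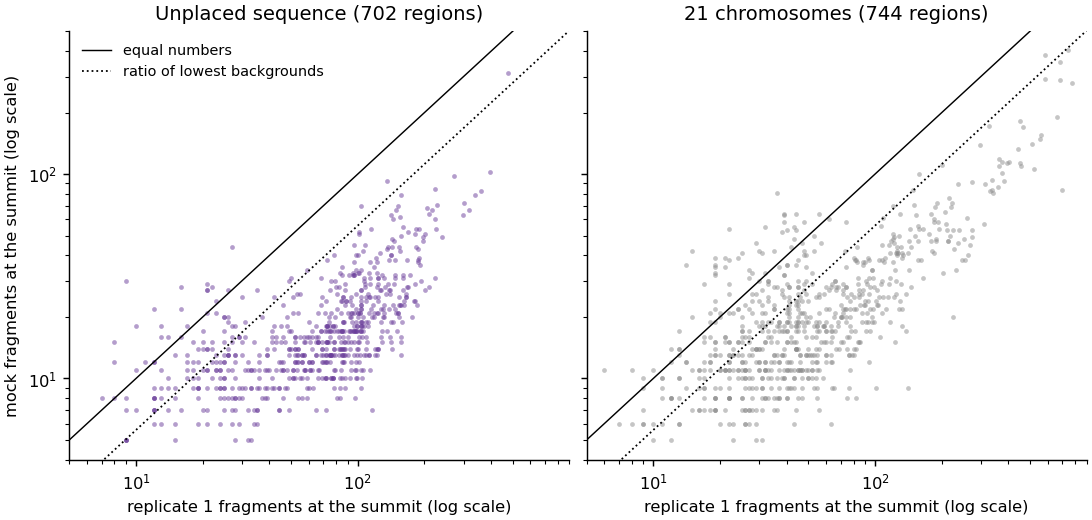
Fragments at the mock summit against fragments at the replicate 1 summit (both log axes) for shared regions with a mock peak, on unplaced sequence (left, 702) and on the 21 chromosomes (right, 744); the solid line marks equal numbers and the dotted line the ratio of lowest backgrounds, 0.56. The mock was taller at 21 unplaced and 52 chromosomal regions, which lie above the solid line.

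Regions with a mock peak were wider. Their median width was 460 bp (quartiles 359 to 681.5), against 310 bp (243 to 416) for mock-free regions, a ratio of 1.48. On the chromosomes the medians were 493.5 and 315 bp. The order was the same within height classes. At 19 to 50 replicate 1 fragments the median widths were 434.5 bp with a mock peak and 312 bp without, and at 51 to 100 fragments they were 470 and 349 bp. At 18 or fewer fragments they were 303.5 and 280 bp. The mock peaks themselves had a median width of 277 bp on unplaced sequence. A wider region has more room to meet the overlap rule of 1 bp, so width was not independent of the grouping. The part of this in the ratio was not tested.

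The local background is the number of fragments expected at the summit, which MACS2 by default takes from the surrounding 10 kb or from the whole genome, whichever is higher. As the peak caller counts it, it includes the fragments of the peak itself and of its neighbours. Given as a multiple of the lowest background of the library, its median in replicate 1 was 5.27 at regions with a mock peak (quartiles 2.64 to 8.11) and 2.01 at mock-free regions (1.14 to 4.9). In replicate 2 the medians were 4.65 and 1.86. The replicate 1 ratio of 2.61 was 1.33 with lists of equal length. The order of the groups was the same on the chromosomes. There the medians were 3.93 with a mock peak and 1.33 mock-free in replicate 1, a ratio of 2.95. In replicate 2 they were 3.53 and 1.49, a ratio of 2.375. The lowest background itself applied to 13.6% of unplaced regions in replicate 1 (12.1 to 15.3%), against 27.4% of chromosomal ones (26.2 to 28.6%). Most regions on either sequence thus lay in windows with more fragments than the genome as a whole, counting those of the peak itself.

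Within height classes the order of the backgrounds turned. At 19 to 50 replicate 1 fragments the median multiple was 2.09 with a mock peak and 2.75 mock-free, at 51 to 100 it was 5.45 and 6.75, and above 100 it was 9.22 and 29.1. Replicate 2 gave 1.96 and 2.48, 4.85 and 6.12, and 8.62 and 26.7. At 18 or fewer fragments both groups stood at 1.09 in replicate 1. Above 100 fragments the median replicate 1 fold was 19.4 at the 205 regions with a mock peak and 6.25 at the 21 mock-free regions. Among regions of 51 to 100 fragments, 34.2% of those on more than 8 times the lowest background had a mock peak (Wilson 26.1 to 43.3%), against 67.1% at 4 to 8 times (61 to 72.6%). Other height classes showed no such gap. Above 100 fragments the shares were 88.9% (82.9 to 92.9%) and 95.7% (88 to 98.5%). At 19 to 50 they were 15.8% (5.52 to 37.6%) and 18.6% (13.1 to 25.7%). The intervals overlapped in both of these classes. The tallest mock-free region, at 43804040 to 43804354 and chosen after its values were seen, had 190 and 155 fragments on backgrounds of 56.1 and 53.5 times the lowest, and folds of 5.15 and 5.73.

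In windows that were full in the replicates the mock was less full, and more so on unplaced sequence. Among the 383 unplaced regions with a mock peak and a replicate 1 background of 4 to 16 times the lowest, the median multiple was 6.82 and 6.23 in the replicates, against 2.54 in the mock. The mock multiple was below that of replicate 1 at 382 of these 383 regions. At the 253 chromosomal regions of the same class the medians were 6.9, 6.5 and 5.46, and the mock was lower at 178. Above 16 times the lowest, the medians were 30.5, 27.7 and 10.3 at 53 unplaced regions, and 38.6, 36.7 and 22.5 at 117 chromosomal ones. Each multiple is relative to the lowest background of its own library, and regions without a mock call do not enter.

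**Figure D4:**
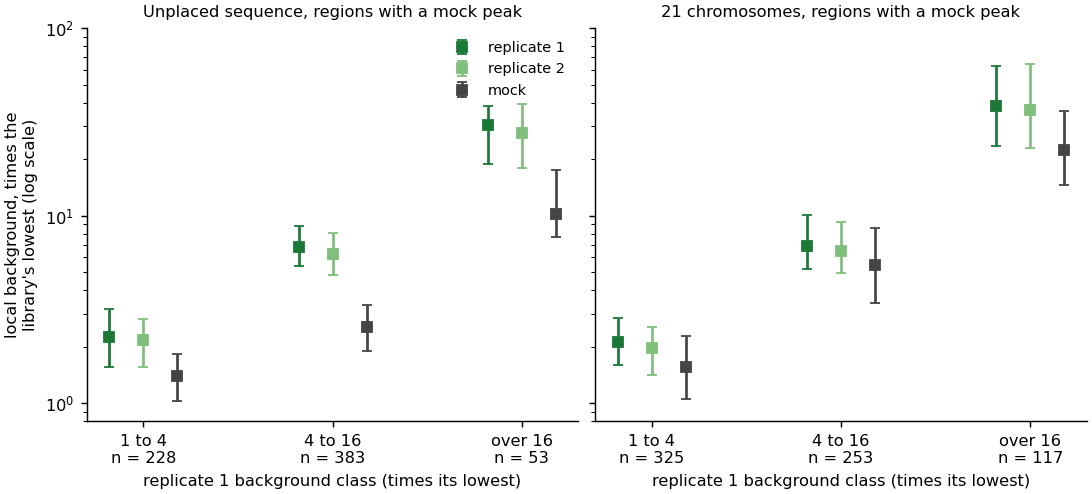
Local background as a multiple of the library's lowest (log axis) in replicate 1, replicate 2 and the mock, for shared regions with a mock peak in 3 classes of replicate 1 background (horizontal axis), on unplaced sequence (left) and on the 21 chromosomes (right); squares are medians and bars are quartiles over regions. In the middle class the mock stands at 2.54 on unplaced sequence and 5.46 on the chromosomes, beside replicate 1 values of 6.82 and 6.9.

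The leading regions with a mock peak had mock heights of unlike size. The region of highest fold on unplaced sequence, at 308645906 to 308646272, had 474 and 426 fragments in the replicates, against 311 in the mock. Its folds were 53.9, 51.3 and 43.4, and it held the tallest mock peak of the unplaced sequence, with a mock to replicate 1 ratio of 0.656. The mock background there was 17.2 times its lowest, above the 12.1 and 14.9 times of the replicates. The next in rank of fold, at 344180677 to 344180948, had 202 and 137 fragments in the replicates and 51 in the mock. The third, at 337994847 to 337995234, had 273 and 217 fragments and 98 in the mock. The fourth, at 350599785 to 350600106, had 153 and 124 fragments and 44 in the mock. The fifth, at 347655472 to 347656004, had 183 and 124 fragments and 54 in the mock. In these last 4 the mock stood at 0.252 to 0.359 of replicate 1, and all had backgrounds of 4.95 to 9.73 times the lowest in the replicates.

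The 5 leading mock-free regions were no taller than the lowest of these 5, and 4 of them had backgrounds below all of theirs. The first, at 347032718 to 347032905, spanned 188 bp and had 120 fragments in replicate 1 and 81 in replicate 2, at folds of 37.3 and 32.1. The second, at 154149480 to 154150373, spanned 894 bp and had 153 and 99 fragments, at folds of 33.0 and 27.7. The third, at 311994157 to 311994358, had 84 and 53 fragments, at folds of 32.9 and 27.1. The fourth, at 183887781 to 183888380, had 81 and 46 fragments, and the fifth, at 243809578 to 243809920, had 65 and 53. Their backgrounds were 1.89 to 5.69 times the lowest, and each lay more than 10 kb from any other shared region. Replicate 2 had 0.568 to 0.815 of the replicate 1 fragments at these 5 regions, a spread that takes in the depth ratio of 0.718.

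Unplaced regions lay close together whether or not the mock was called. The lists do not give the borders of the joined pieces, so neighbours on the coordinate may come from different pieces. The median distance to the nearest shared region was 5420.5 bp with a mock peak (quartiles 378.5 to 33761.5) and 4278 bp mock-free (584 to 34574), a ratio of 1.27 that turned round when regions were taken from either replicate alone or before 280 Mb only and was 2.71 with lists of equal length. On the chromosomes the medians were 15465 and 368995 bp, a ratio of 0.0419. Over all heights, the large spacing contrast between the groups on the chromosomes thus had no counterpart of that size on unplaced sequence. Within height classes the mock-free unplaced regions lay closer to a neighbour, except in the lowest class. At 19 to 50 replicate 1 fragments the medians were 13034.5 bp with a mock peak and 2819 bp mock-free. At 51 to 100 they were 1534 and 630 bp, and above 100 they were 1663 and 703 bp. At 18 or fewer they were 17781.5 and 19936 bp. Chromosomal spacing was not split by height.

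Taken as clusters of regions no more than 10 kb apart, 1025 of the 1739 unplaced regions were clustered (58.9%, Wilson 56.6 to 61.2%), against 30.2% on the chromosomes (29 to 31.4%) and 36.9% of all shared regions. The clustered share was 57.1% with a mock peak (53.4 to 60.7%) and 60.2% mock-free (57.2 to 63.1%). With a limit of 1 kb the order was the other way round, 37.0% (33.5 to 40.7%) and 31.7% (29 to 34.6%), and with 100 kb it was 90.9% and 87.7%. On the chromosomes with the 10 kb limit the shares were 48.3% (44.7 to 51.8%) and 27.5% (26.2 to 28.7%). Clusters of 3 or more regions at the 10 kb limit took in 18.5% of unplaced regions with a mock peak and 28.1% of mock-free ones. With 1 kb these shares were 4.13 and 4.44%, and with 100 kb 77.1 and 75.4%. On the chromosomes at 10 kb they were 29.0 and 10.5%.

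**Figure D5:**
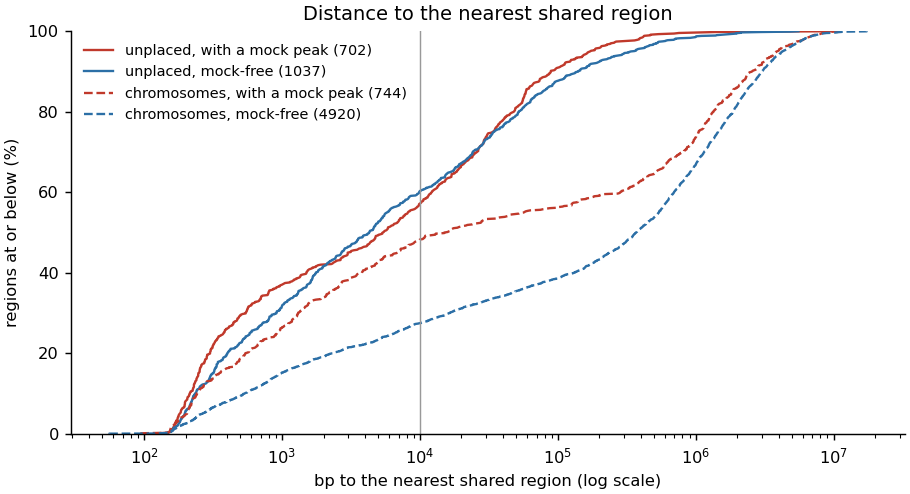
Percent of shared regions (vertical axis) at or below a given distance to the nearest shared region (horizontal axis, bp, log scale), with a mock peak (red) and mock-free (blue), on unplaced sequence (solid) and on the chromosomes (dashed); the grey line marks 10 kb. The unplaced curves cross and stand at 57.1 and 60.2% at 10 kb, and the chromosomal ones at 48.3 and 27.5%.

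The 404 unplaced clusters were mostly small, and 302 of them held 2 regions. A mock peak was present in some but not all regions of 218 clusters, in every region of 64 and in none of 122. In the 218 mixed clusters the median replicate 1 height with a mock peak was above that of the mock-free regions in 179, below it in 37 and equal in 2. The tallest region of the cluster had the mock peak in 175. The median ratio within mixed clusters was 1.56. It rests on the 608 regions of mixed clusters, 270 of them with a mock peak. The 3.41 between the groups as a whole is a ratio of pooled medians over all unplaced regions. The 2 ratios thus differ in measure and in regions, and their difference was not tested. Replicate 2 gave the same answer as replicate 1 on whether the median with a mock peak was the higher in 194 of the 218.

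The 5 largest clusters differed in fullness and in mock calls. The largest, from 129504914 to 129539021, held 14 regions, 4 of them with a mock peak. Its regions had 60 to 222 fragments in replicate 1 and 36 to 181 in replicate 2, on a median background of 29.4 times the lowest in replicate 1, and the 4 mock peaks had 25 to 85. The next, from 43789439 to 43810653, held 12 regions, 6 with a mock peak of 16 to 54 fragments. Its replicate 1 heights were 72 to 239, and its median background of 41.6 times the lowest was the highest of the 5. In the cluster from 118717624 to 118742605, 4 of 11 regions had a mock peak, and replicate 1 heights were 15 to 51 on a median background of 7.3 times the lowest. The cluster from 121366744 to 121411577 held 10 regions and no mock peak, with replicate 1 heights of 12 to 74 on a median background of 3.62 times the lowest. That from 120736956 to 120768063 held 9 regions, 1 with a mock peak of 11 fragments, and replicate 1 heights of 17 to 92. In 4 of these 5 clusters mock-free regions were the more numerous, and in 1 they were as many as the others. Over all unplaced regions 1037 of 1739 were mock-free, so such a majority is not particular to these clusters.

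Regions with a mock peak had a neighbour with one more often at distances of up to 1 kb. Within 1 kb, the nearest region had a mock peak for 52.7% of regions with one (Wilson 46.6 to 58.7%) and for 38.9% of mock-free regions (33.8 to 44.3%). Where the nearest region was over 10 kb away the shares were 44.5% (39 to 50.2%) and 42.4% (37.7 to 47.2%), with intervals that overlapped. On the chromosomes the shares within 1 kb were 44.6% (37.8 to 51.6%) and 15.5% (13.1 to 18.3%). The unplaced contrast was not clear at the shortest range. Of the 441 unplaced regions 500 bp or less from the nearest, 46.9% had a mock peak (42.3 to 51.6%). Among adjacent pairs at that range, 54 had a mock peak in both regions, 108 in 1 and 67 in neither.

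Along the joined sequence the regions were unevenly spread. The stretch from 300 to 350 Mb held 809 regions, or 16.2 per Mb, whereas that from 50 to 100 Mb held 37, or 0.74 per Mb. From 280 Mb on, a limit chosen after the values were seen, 49.8% of 981 regions had a mock peak (46.7 to 53%), against 28.1% of 758 before it (25 to 31.4%). The gap was present at like height. At 51 to 100 replicate 1 fragments the shares were 67.9% from 280 Mb (62.6 to 72.8%) and 37.1% before it (29.6 to 45.2%), where the median backgrounds were 5.46 and 8.25 times the lowest. At 18 or fewer fragments they were 13.8% (10 to 18.8%) and 8.9% (5.89 to 13.2%), with overlapping intervals. The part of the background in these differences was not tested.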

How the data were processed

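Per library, the authors deposited a narrowPeak list of calls made on that sample. The submitters' processing notes list MACS2 2.2.7.1, Trimmomatic 0.39 and bcl2fastq 2.17. Which aligner, build and options were used is not given in the sources used here. Deposited fold is a ratio, (summit fragments + 1) / (local background + 1), and so understates enrichment on a low background. The −log10 p and −log10 q deposited for each peak come from the caller, with a minimum −log10 q of 1.31 in every list. The deposited score was left unused.

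Summit fragments and background were solved from fold and −log10 p as a whole number and a Poisson mean. In each list 100% of peaks were solved within a relative tolerance of 1e-04. The code was tested on simulated data. A region takes the values of its tallest peak per library. The files hold no reads, so depth is known only as ratios between libraries, and fragments carry no molecular identifiers. Intervals on shares are Wilson intervals (95% confidence). No test was run. Python 3.11.15, pandas 2.3.3 and scipy 1.17.1 were used. The members, classes and comparisons were chosen with earlier results of these data known. Named regions are the 5 with and the 5 without a mock peak that rank highest in fold (percentile ranks averaged over the replicates), the 5 largest clusters and the region with the tallest mock peak. Gene and sequence context was not analysed here.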

Additional observations from a re-analysis of the deposited data

How the results depend on the processing

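Of 54 values under alternatives, 28 stayed within a set limit of the main value, 19 moved further and 7 turned direction. For the number of regions the limit was 1.5 times the main count. For ratios and shares it was the standard deviation between the value without replicate 1 and that without replicate 2. Those settings are among the 54 values judged, and the limit was wide for height and narrow for spacing. The counts therefore do not measure robustness, and the values themselves are given below. Regions with a mock peak were taller, wider and on a higher background than mock-free regions in every alternative run. The mock share was above that on the chromosomes in each of the 5 alternatives that rebuilt the regions. The gap was smallest with lists of equal length, where no interval was computed. With lists of equal length, 793 unplaced regions were left, 52.7% of all shared ones; 67.1% of them had a mock peak, against 61.7% on the chromosomes, and the ratios were 1.49 for height, 1.35 for width, 1.33 for background and 2.71 for spacing, with a clustered share different by -8.56 percentage points. With −log10 q of at least 5, 33.1% of shared regions were unplaced. Leaving out either replicate gave a mock share of 28.0 to 37.7%, an unplaced share of 20.1 to 22.5%, 1894 to 2579 regions, height ratios of 3.5 to 4.93, width ratios of 1.63 to 1.79, background ratios of 2.58 to 3.62, spacing ratios of 0.805 to 0.848 and clustered shares different by -0.638 to 0.144 points. The spacing ratio, 1.27 in the main setting, turned without either replicate, and the clustered difference, -3.05 points in the main setting, turned without replicate 1 only; it was 5.31 points with a 1 kb limit and 3.23 with 100 kb. Settings added after the data were seen were 1 region per cluster and regions before 280 Mb. For the first, the tallest region in replicate 1 was kept, and the mock share was 48.3%. The tallest region had the mock peak in 175 of the 218 mixed clusters, so this share is no check on clustering. Regions before 280 Mb gave a mock share of 28.1%, a width ratio of 1.61, a spacing ratio of 0.986 and a clustered difference of 3.19 points. The cause of these turns was not tested. Depth limits what mock-free means: no unplaced mock peak rested on fewer than 5 fragments. No paired analysis was possible because 1 mock library cannot be matched to 2 replicates.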

Other observations

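Peaks outside the shared regions were low. On unplaced sequence 819 replicate 1 peaks had no replicate 2 peak, with a median of 11 fragments, and 104 replicate 2 peaks had no replicate 1 peak, with a median of 9. Of the 781 mock peaks there, 50 lay outside the shared regions, 16 of them at a replicate 1 peak and 3 at a replicate 2 peak. The remaining 31 lay at neither (3.97%, Wilson 2.81 to 5.58%), against 145 of 973 on the chromosomes (14.9%, 12.8 to 17.3%). These 31 had a median of 10 fragments and at most 27, and the mock peaks at shared unplaced regions had a median of 15.

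Regions often came as close neighbours. On unplaced sequence 229 pairs of adjacent regions lay no more than 500 bp apart and took in 441 regions (25.4%), against 314 pairs and 603 regions (10.6%) on the chromosomes. The median distance between their replicate 1 summits was 718 bp on unplaced sequence and 662 bp on the chromosomes. Of the unplaced pairs, 23.6% had a mock peak in both regions, 47.2% in 1 of them and 29.3% in neither, and on the chromosomes it was 11.1%, 24.8% and 64.0%. Over the 441 unplaced regions in these pairs the share with a mock peak was 46.9% (Wilson 42.3 to 51.6%). Where 1 region of an unplaced pair had the mock peak and the heights were unequal, it was the taller in 84 of 107 pairs, against 62 of 77 on the chromosomes.

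The overlap rules had few borderline cases. The smallest overlap between replicates within an unplaced region was 72 bp, between peaks of 20 and 49 fragments at 168982097 to 168982835, and the closest replicate 1 peak left out lay 51 bp from a replicate 2 peak, with 15 and 17 fragments. The smallest overlap with a mock peak was 3 bp, at a region of 9 replicate 1 fragments and a mock peak of 5. The mock-free region closest to a mock peak, at 325414111 to 325414526, had 97 replicate 1 fragments and lay 64 bp from a mock peak of 15. At 1 of the 702 regions was the overlap with the mock under 50 bp.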
